A study of Homo sapiens with 9 samples.

Results

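The genes of DNA replication licensing and of the replication fork were followed in HEK293T cells that over-expressed BPIFB4. The set holds 49 genes of 20043 named genes on the array. It was chosen by the known role of each gene product, with earlier results of these data known. All 49 genes had at least 1 probe above background (68 of 72 probes). Origins are licensed in G1, when the origin recognition complex, CDC6 and CDT1 load the MCM2-7 helicase onto DNA, and geminin (GMNN) holds CDT1 inactive afterwards so that no origin fires again in the same cycle. The kinase CDC7 with DBF4 then starts the assembly of CDC45 and GINS on the helicase, polymerase alpha with primase lays down primers, and polymerases delta and epsilon extend them with the sliding clamp PCNA. Many of these genes are transcribed by E2F factors, and HEK293T cells carry large T antigen, which binds the pocket proteins that hold E2F back.

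The samples were HEK293T cells, a human embryonic kidney line, transfected by Lipofectamine 2000 with the pRK5 plasmid. The plasmid was empty, carried wild-type BPIFB4 (WT-BPIFB4), or carried the longevity-associated form (LAV-BPIFB4), with 3 samples and 3 bead arrays per group. All 9 samples were starved of serum for 18 hours, beginning 24 hours after transfection, so that starvation and transfection were common to every group. The study asked what over-expression of either form changes in the transcriptome. Nothing in the labels tells separate cultures from repeats of 1 culture, and p-values therefore measure the spread between these samples, which may be technical.

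The 9 arrays shared 1 chip, where each group filled neighbouring places, so group and place cannot be told apart. Median signals were 93.1 to 139, and each array detected 18940 to 20658 probes. WT-BPIFB4 replicate 1 stood nearest to the empty vector arrays on the first principal component, which held 31.8% of the variance. The deposited value table matched its own array for all 6 empty vector and WT-BPIFB4 samples and matched none for the 3 LAV-BPIFB4 samples. Those 3 columns correlated at 0.985 to 0.989 with their own array and at 0.992 to 0.994 with another array. Which values belong to the LAV-BPIFB4 samples is therefore not settled. The comparisons rest on the non-normalized signals, and every LAV-BPIFB4 result depends on this choice. Of 10 markers of this line, 8 had a probe above background, against 0 of 6 endothelial, 2 of 6 fibroblast and 1 of 5 leukocyte markers. The array's BPIFB4 probe was detected on 0 of 9 arrays, so the transgene could not be followed.

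Few replication genes were called with either form of BPIFB4. Those called with both forms have roles in licensing and helicase activation. Those called with LAV-BPIFB4 only have roles in origin recognition, priming and ligation. With WT-BPIFB4, CDT1 and GINS3 rose and CDC7 fell relative to the empty vector. With LAV-BPIFB4, CDT1 and GINS3 rose, while CDC7, POLA1, ORC3 and LIG1 fell. Changes of called genes lay between 1.42-fold and 1.70-fold. A gene was called at a limma adjusted p under 0.05 over all 20914 probes kept, and levels are log2 intensities after normalization, given for the probe with the highest mean level.

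With WT-BPIFB4, 3 of 49 replication genes (6.12%) were called, against 1.3% of the 11830 genes tested (0.803% up and 0.499% down). With LAV-BPIFB4, 6 of 49 (12.2%) were called, against 9.01% of all genes (3.98% up and 5.03% down), a share near the background. The groups did not overlap for 9 genes with WT-BPIFB4 (18.4%, against 17.9% of all genes, 8.9% above and 8.99% below). With LAV-BPIFB4 they did not overlap for 18 genes (36.7%, against 34% of all genes, 15.9% above and 18.1% below), of which 13 lay below and 5 above the empty vector. At an unadjusted p under 0.05 there were 8 genes with WT-BPIFB4 (16.3%, against 17.2%) and 15 with LAV-BPIFB4 (30.6%, against 26.9%). Neither count of separated genes was far from its background. Both comparisons share the 3 empty vector arrays.

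The replication genes had a median log2 change of -0.01 with WT-BPIFB4, where all genes had 0.01. Of their values 26 of 49 were below 0, against 5824 of all 11830 genes. With LAV-BPIFB4 the median was -0.10, where all genes had 0.00, and 31 of 49 were below 0, against 5941 of 11830. This LAV-BPIFB4 median turned to 0.10 with median scaling in place of quantile normalization, where the median of all genes moved to 0.09, and was -0.0455 without empty vector replicate 1. The median deviation of the 49 genes from their own means was 0.02 to 0.03 on the empty vector arrays and -0.10 to -0.05 on the LAV-BPIFB4 arrays. On the WT-BPIFB4 arrays it was 0.14, -0.02 and -0.04, so that replicate 1 was the highest of all 9 arrays. In bulk RNA, fewer cells in S phase and less RNA of these genes per cell cannot be told apart.

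Without WT-BPIFB4 replicate 1, 7 replication genes were called in the WT-BPIFB4 comparison (CDC7, CDT1, FEN1, GINS3, ORC3, POLA1 and RPA1), where 8.93% of all genes were. Without empty vector replicate 1 only CDT1 was called there, where 0.465% of all genes were. In the LAV-BPIFB4 comparison 3 genes (CDC7, CDT1 and POLA1) were called without empty vector replicate 1, LAV-BPIFB4 replicate 1 or LAV-BPIFB4 replicate 3. The shares of all genes were then 4.65%, 2.98% and 2.87% in the same order, against 9.01% with all 9 arrays. With median scaling none of the calls passed in either comparison, with adjusted p values for LAV-BPIFB4 from 0.0517 for CDT1 to 0.463 for LIG1. Without an intensity trend in the variance only POLA1 with LAV-BPIFB4 passed. With the deposited value table the calls of CDC7 with WT-BPIFB4 (adjusted p = 0.053) and of ORC3 (adjusted p = 0.0698) and LIG1 (adjusted p = 0.191) with LAV-BPIFB4 were lost. Without the filter on dim probes the same calls had adjusted p values of 0.0769, 0.0571 and 0.0788.

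**Figure D1:**
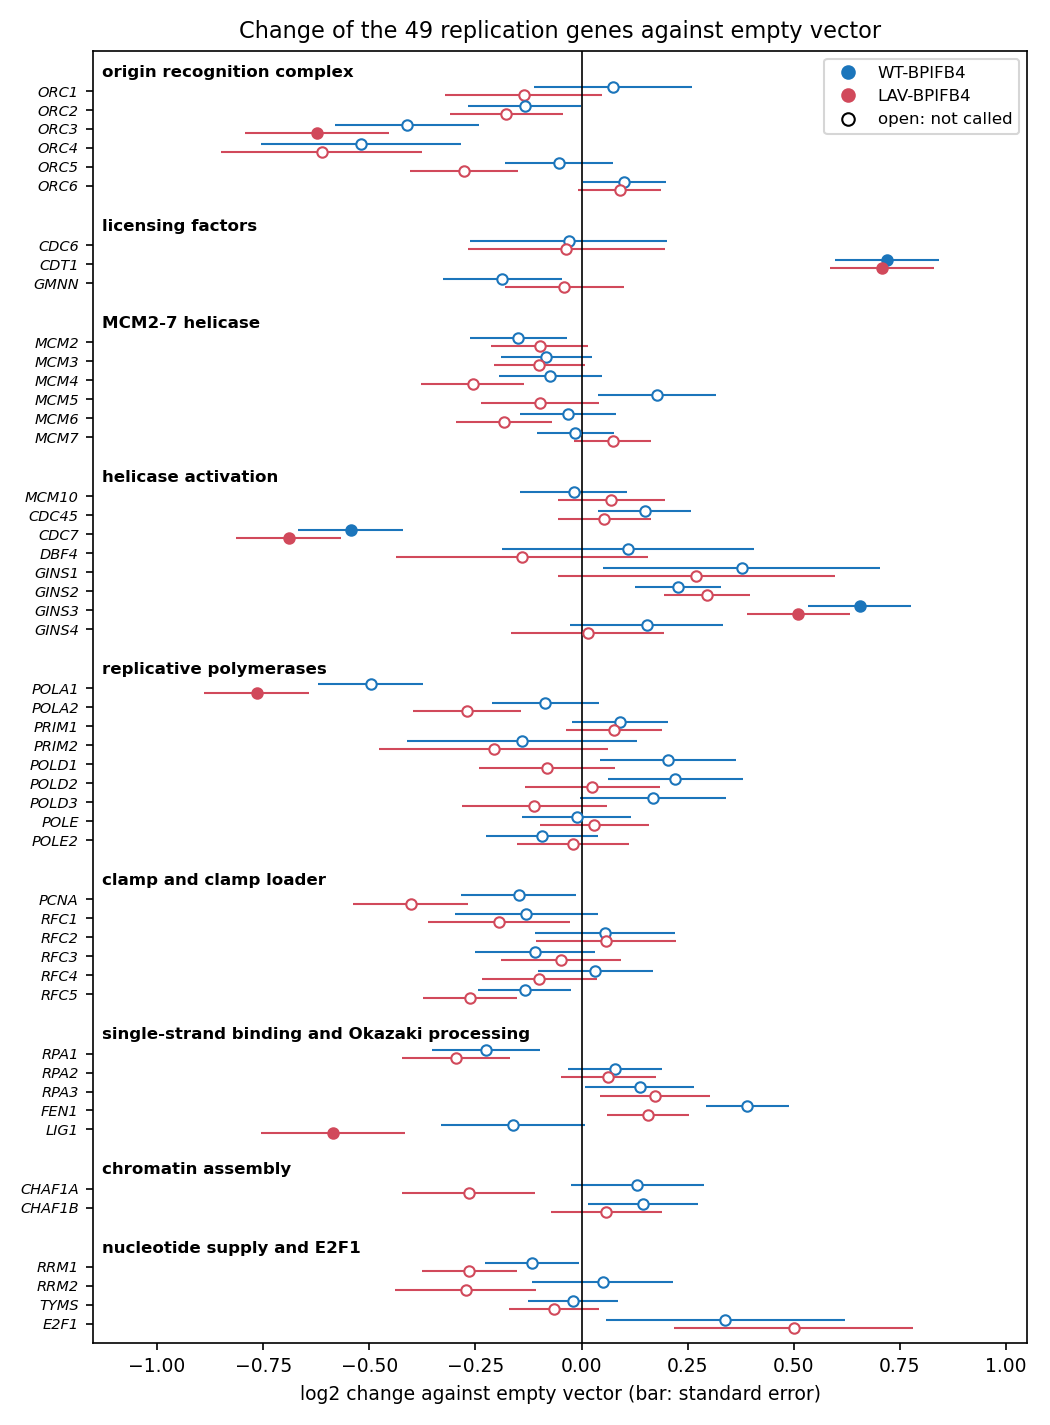
Log2 change against the empty vector (horizontal axis) for each of the 49 replication genes, grouped by role, with the standard error of the limma fit as the bar. Blue points stand for WT-BPIFB4 and red points for LAV-BPIFB4, and filled points passed the adjusted threshold: CDT1 and GINS3 lie to the right, CDC7, POLA1, ORC3 and LIG1 to the left, and most others within 0.3 of 0.

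Promoter letters were compared because E2F factors are textbook regulators of many of these genes. Promoters of 300 bases, from 250 bases before to 50 bases after the start of transcription, came from RefSeq on GRCh38.p14 and matched 43 of the 49 genes by symbol. MCM4, MCM5, GINS4, POLD3, RPA2 and RPA3 are named only. An E2F motif (TTTCCCGC, TTTGGCGC or TTTCGCGC, on either strand) was in 21 of 43 genes (48.8%). It was in 542 of 9476 genes measured above background (5.72%) and in 902 of all 27305 genes with such a promoter (3.3%). Of the 28 matches, 22 began no farther than 100 bases upstream of the start. Matches of TTTGGCGC and TTTCGCGC overlap each other in the promoter of MCM6.

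The E2F motif was in all 6 genes called in either comparison and in 15 of the 37 other genes with a promoter, so it was present in genes that rose and in genes that fell. A match is a description of letters and not a bound site. The promoters of 2 genes that rose and 2 that fell are shown, chosen after their values were seen because their LAV-BPIFB4 calls held under the most alternatives. All are on the plus strand, 5′ to 3′, with E2F motif matches on either strand in capitals. CDT1 is at chr16:88803539-88803838, GINS3 at chr16:58392221-58392520, CDC7 at chr1:91500862-91501161 (the second of its promoters, the first holding no match) and POLA1 at chrX:24693668-24693967.
CDT1: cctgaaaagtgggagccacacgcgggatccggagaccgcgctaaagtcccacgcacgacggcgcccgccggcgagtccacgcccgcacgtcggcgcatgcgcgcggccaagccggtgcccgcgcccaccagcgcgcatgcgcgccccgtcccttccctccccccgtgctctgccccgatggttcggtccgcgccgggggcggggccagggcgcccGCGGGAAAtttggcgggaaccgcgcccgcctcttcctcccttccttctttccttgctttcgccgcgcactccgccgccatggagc
GINS3: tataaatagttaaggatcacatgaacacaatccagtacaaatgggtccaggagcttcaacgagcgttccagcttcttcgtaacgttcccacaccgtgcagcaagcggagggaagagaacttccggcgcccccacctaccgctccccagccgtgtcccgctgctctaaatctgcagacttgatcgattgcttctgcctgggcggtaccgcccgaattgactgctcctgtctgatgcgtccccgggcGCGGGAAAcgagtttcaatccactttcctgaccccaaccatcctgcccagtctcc
CDC7: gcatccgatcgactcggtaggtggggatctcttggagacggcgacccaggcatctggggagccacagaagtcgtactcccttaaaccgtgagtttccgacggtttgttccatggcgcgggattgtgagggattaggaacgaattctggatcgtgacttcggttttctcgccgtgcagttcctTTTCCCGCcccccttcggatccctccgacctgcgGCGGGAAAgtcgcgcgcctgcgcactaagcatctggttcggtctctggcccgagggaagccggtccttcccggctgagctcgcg
POLA1: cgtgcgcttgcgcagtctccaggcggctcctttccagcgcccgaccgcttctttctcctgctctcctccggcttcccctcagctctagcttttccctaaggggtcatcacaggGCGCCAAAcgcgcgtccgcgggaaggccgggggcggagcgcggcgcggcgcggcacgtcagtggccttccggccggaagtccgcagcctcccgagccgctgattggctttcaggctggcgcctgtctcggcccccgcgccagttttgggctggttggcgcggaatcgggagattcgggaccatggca

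In CDT1 the match lies 35 to 28 bases upstream of the start, and in GINS3 it spans the start itself, from 5 bases upstream to 3 bases downstream. CDC7 has a match from 68 bases upstream and another, on the other strand, from 34 bases upstream. In POLA1 the match is TTTGGCGC on the minus strand from 137 bases upstream. ORC3 and LIG1 carry TTTCCCGC from 12 and 114 bases upstream.

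Other motifs had other shares in the replication genes than in 38 mitosis genes (cyclin B, spindle and kinetochore genes), which serve as a neighbouring group of the cell cycle. The CHR element (TTTGAA, either strand), a motif of G2 and mitosis genes, was in 2 of 43 replication genes (4.65%), 23 of 32 mitosis genes with a promoter (71.9%) and 14.1% of genes above background. The CCAAT box was in 25 replication genes (58.1%), 26 mitosis genes (81.2%) and 44.0% of genes above background. A pair of heat shock half-sites (GAANNTTC), a motif of the stress response, was in 1 replication gene (ORC1, 2.33%), against 6.71%.

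**Figure D2:**
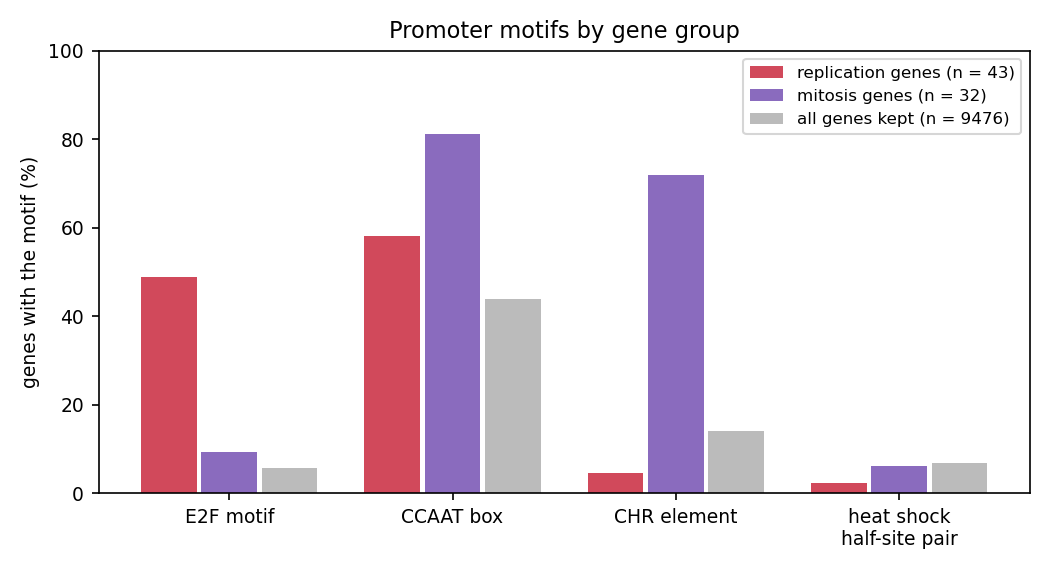
Share of genes (vertical axis, percent) whose promoter holds an E2F motif, a CCAAT box, a CHR element or a pair of heat shock half-sites, for 43 replication genes (red), 32 mitosis genes (purple) and 9476 genes above background (grey). The E2F motif was in 48.8% of the replication genes and 9.38% of the mitosis genes, and the CHR element in 4.65% and 71.9%.

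Of the origin recognition complex, which marks origins and loads the helicase with CDC6 and CDT1, ORC3 was called, with LAV-BPIFB4. ORC3, a core subunit, was at 9.73, 9.79 and 9.63 on the empty vector arrays, 9.74, 9.29 and 8.88 with WT-BPIFB4 and 9.03, 9.22 and 9.03 with LAV-BPIFB4. All LAV-BPIFB4 arrays lay below all empty vector arrays, while WT-BPIFB4 replicate 1 was as high as the empty vector. ORC3 fell 1.54-fold with LAV-BPIFB4 (log2 change -0.62, SE 0.17, limma adjusted p = 0.0291) and differed by -0.41 with WT-BPIFB4 (adjusted p = 0.241). The LAV-BPIFB4 call was lost when any 1 of the empty vector or LAV-BPIFB4 arrays was left out, with adjusted p from 0.0522 to 0.121. LAV-BPIFB4 and WT-BPIFB4 differed by -0.21 (95% interval -0.56 to 0.14).

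The values of ORC4, its neighbour in the core, were named after they were seen. ORC4 was at 7.03, 6.81 and 6.94 with the empty vector, 6.70, 6.52 and 6.003 with WT-BPIFB4 and 6.36, 6.56 and 6.03 with LAV-BPIFB4. Both BPIFB4 groups lay below the empty vector without overlap, by -0.52 (adjusted p = 0.293) and -0.61 (adjusted p = 0.115), and neither passed. ORC1, ORC2, ORC5 and ORC6 differed by -0.13 to 0.10 with WT-BPIFB4 and by -0.28 to 0.09 with LAV-BPIFB4. A further ORC5 probe, detected on 9 of 9 arrays, gave -0.58 (adjusted p = 0.265) and -0.30, and a further ORC6 probe gave -0.24 and -0.10. The median of the 6 subunits was -0.09 with WT-BPIFB4 and -0.23 with LAV-BPIFB4.

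CDT1, which brings the helicase to the origin and is degraded once replication starts, was higher with both forms. CDT1 stood at 9.89, 10.25 and 9.87 on the empty vector arrays, 10.68, 10.72 and 10.78 with WT-BPIFB4 and 10.71, 10.71 and 10.70 with LAV-BPIFB4. All 6 BPIFB4 arrays lay above all 3 empty vector arrays, and empty vector replicate 2 was the nearest to them. CDT1 rose 1.65-fold with WT-BPIFB4 (log2 change 0.72, SE 0.12, limma adjusted p = 0.00329) and 1.63-fold with LAV-BPIFB4 (0.71, SE 0.12, adjusted p = 0.00199). Leaving out any single array ended neither call.

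The other licensing factors were not called. CDC6, the loader ATPase, was at 6.52, 6.37 and 6.93 with the empty vector, 6.78, 6.40 and 6.55 with WT-BPIFB4 and 6.86, 6.36 and 6.49 with LAV-BPIFB4. GMNN, the CDT1 inhibitor, was at 10.97, 10.36 and 10.69, then 10.44, 10.55 and 10.47, then 10.74, 10.44 and 10.71 in the same order of groups. The groups overlapped for both genes. CDC6 differed by -0.03 with WT-BPIFB4 and -0.04 with LAV-BPIFB4, and GMNN by -0.19 and -0.04. The difference in change between CDT1 and these genes was not tested.

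No subunit of the MCM2-7 helicase, the ring that unwinds DNA, was called in either comparison. MCM2 was at 11.20, 10.95 and 11.05 with the empty vector, 10.90, 10.94 and 10.91 with WT-BPIFB4 and 10.82, 11.03 and 11.05 with LAV-BPIFB4, a difference of -0.15 and -0.10. MCM5 was at 10.58, 10.08 and 10.26, then 10.68, 10.35 and 10.42, then 10.16, 10.33 and 10.13, a difference of 0.18 and -0.10. For MCM2 the WT-BPIFB4 arrays were all just below the empty vector arrays, and the other contrasts of these genes with the empty vector overlapped.

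MCM4 had the smallest p of the helicase subunits with LAV-BPIFB4. It was at 11.96, 12.38 and 12.06 with the empty vector, 12.26, 11.9996 and 11.92 with WT-BPIFB4 and 11.84, 11.81 and 11.98 with LAV-BPIFB4. LAV-BPIFB4 replicate 3 was above empty vector replicate 1, so the groups overlapped. The MCM4 difference was -0.26 with LAV-BPIFB4 (adjusted p = 0.203) and -0.07 with WT-BPIFB4, and a further probe gave -0.27 and -0.10. MCM3, MCM6 and MCM7 differed by -0.08 to -0.01 with WT-BPIFB4 and by -0.18 to 0.07 with LAV-BPIFB4. Further MCM7 probes gave 0.46 and 0.22 with WT-BPIFB4 and 0.44 and -0.01 with LAV-BPIFB4, and a further MCM3 probe gave 0.03 and 0.07, none of them called. Across the 6 subunits the median was -0.05 and -0.10.

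Among the factors that activate the loaded helicase, CDC7 and GINS3 were called in opposite directions. CDC7, the catalytic subunit of the kinase that phosphorylates the MCM ring, stood at 11.27, 11.23 and 11.16 with the empty vector, 10.95, 10.58 and 10.51 with WT-BPIFB4 and 10.48, 10.62 and 10.50 with LAV-BPIFB4. All BPIFB4 arrays lay below the empty vector, with WT-BPIFB4 replicate 1 the closest. CDC7 fell 1.46-fold with WT-BPIFB4 (log2 change -0.54, SE 0.12, limma adjusted p = 0.0369) and 1.61-fold with LAV-BPIFB4 (-0.69, SE 0.12, adjusted p = 0.00258). The WT-BPIFB4 call was lost without any 1 of the 8 arrays other than WT-BPIFB4 replicate 1, with adjusted p from 0.0532 to 0.252, and the LAV-BPIFB4 call held without each.

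GINS3, a subunit of the GINS complex that travels with the helicase, was at 9.98, 10.10 and 10.15 with the empty vector, 10.92, 10.65 and 10.61 with WT-BPIFB4 and 10.59, 10.52 and 10.65 with LAV-BPIFB4. The BPIFB4 arrays lay above the empty vector without overlap. GINS3 rose 1.57-fold with WT-BPIFB4 (log2 change 0.66, SE 0.12, limma adjusted p = 0.00825) and 1.42-fold with LAV-BPIFB4 (0.51, SE 0.12, adjusted p = 0.0141). Without empty vector replicate 1 the adjusted p was 0.0583 with WT-BPIFB4 and 0.0595 with LAV-BPIFB4. The LAV-BPIFB4 call was also lost without LAV-BPIFB4 replicate 1 (adjusted p = 0.0644) or replicate 3 (adjusted p = 0.0858).

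The remaining activation factors were not called. GINS2, of the same complex and named after its values were seen, was at 11.64, 11.59 and 11.69 with the empty vector, 11.84, 11.80 and 11.97 with WT-BPIFB4 and 11.97, 11.86 and 11.99 with LAV-BPIFB4. Its BPIFB4 arrays were all above the empty vector, by 0.23 (adjusted p = 0.284) and 0.30 (adjusted p = 0.0788). CDC45, the helicase cofactor, was at 11.67, 11.96 and 11.66, then 11.98, 11.87 and 11.89, then 11.72, 11.81 and 11.92, a difference of 0.15 and 0.05 with overlapping groups. MCM10, which helps to open the helicase ring, and GINS4 differed by -0.02 and 0.15 with WT-BPIFB4 and by 0.07 and 0.01 with LAV-BPIFB4. A further MCM10 probe gave 0.15 with WT-BPIFB4 and, without overlap, 0.28 with LAV-BPIFB4 (limma adjusted p = 0.24). DBF4 and GINS1 were detected on 1, 2 and 1 of the 3 arrays per group, so no fold is given for them.

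**Figure D3:**
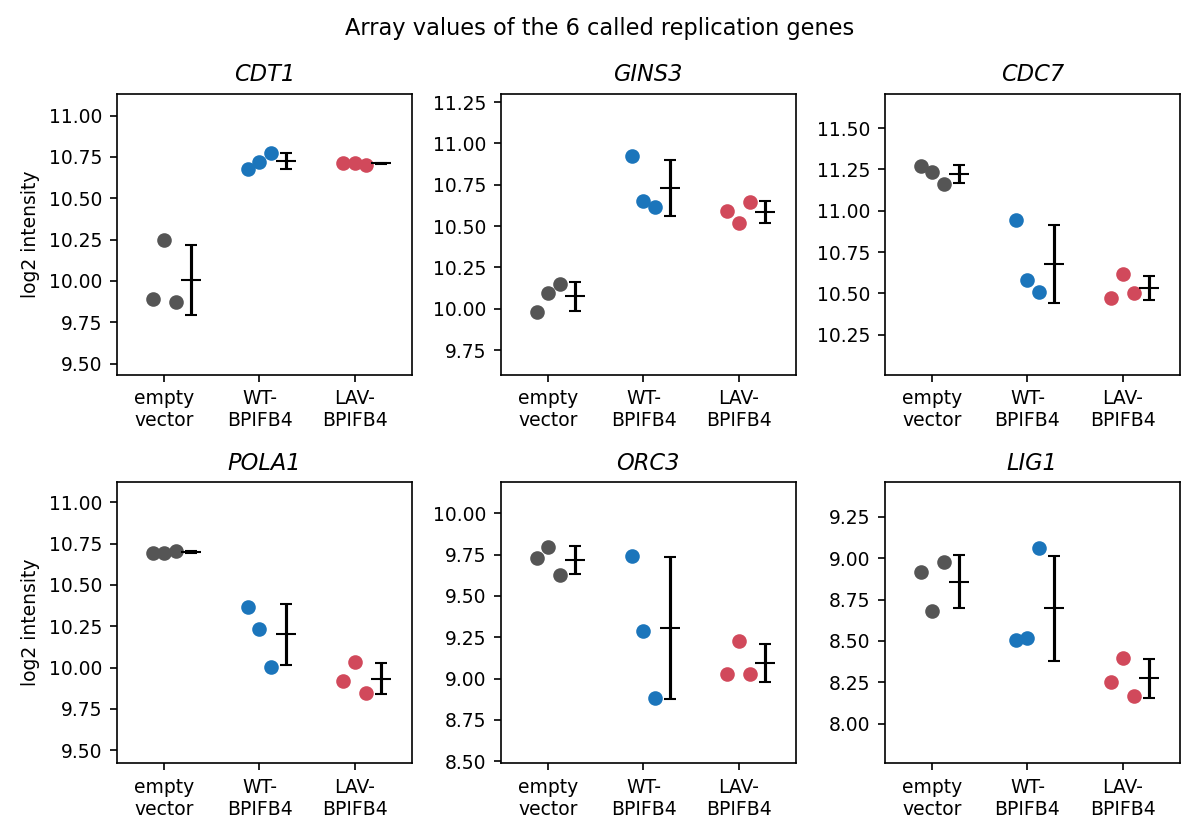
Log2 intensity (vertical axis) on each of the 9 arrays for the 6 replication genes called in either comparison with the empty vector, with 1 point per array and the group mean ± SD (n = 3) beside it. CDT1 and GINS3 lie higher on all 6 BPIFB4 arrays and CDC7 and POLA1 lower, while for ORC3 and LIG1 the WT-BPIFB4 arrays reach the range of the empty vector.

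Of the replicative polymerases, POLA1 was called with LAV-BPIFB4. POLA1, the catalytic subunit of polymerase alpha that starts each new strand with primase, stood at 10.69, 10.69 and 10.71 with the empty vector, 10.37, 10.23 and 10.00 with WT-BPIFB4 and 9.92, 10.03 and 9.85 with LAV-BPIFB4. Both BPIFB4 groups lay below the empty vector, and WT-BPIFB4 replicate 3 fell within the range of the LAV-BPIFB4 arrays. POLA1 fell 1.70-fold with LAV-BPIFB4 (log2 change -0.77, SE 0.12, limma adjusted p = 0.00106), a call that held without each array, and differed by -0.50 with WT-BPIFB4 (adjusted p = 0.0531). A further POLA1 probe, detected on 7 of 9 arrays, gave 0.23 with LAV-BPIFB4 and -0.30 with WT-BPIFB4, so the probes disagree on LAV-BPIFB4.

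The partners of POLA1 were not called. POLA2, the accessory subunit of polymerase alpha, differed by -0.08 and -0.27, and the primase subunit PRIM1 by 0.09 and 0.08, with WT-BPIFB4 and LAV-BPIFB4. PRIM2, the large primase subunit, was detected on 7 of 9 arrays and is given no fold. Subunits of polymerase delta (POLD1, POLD2, POLD3) differed by 0.17 to 0.22 with WT-BPIFB4 and by -0.11 to 0.03 with LAV-BPIFB4. Those of polymerase epsilon (POLE, POLE2) differed by -0.09 to -0.01 and by -0.02 to 0.03.

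The clamp and its loader, which tether polymerases to DNA, held no called gene. The brightest PCNA probe was at 12.13, 11.77 and 11.86 with the empty vector, 12.01, 11.76 and 11.54 with WT-BPIFB4 and 11.73, 11.52 and 11.30 with LAV-BPIFB4. All LAV-BPIFB4 arrays were below the empty vector, by -0.40 (adjusted p = 0.073), while the WT-BPIFB4 difference of -0.15 overlapped. The further PCNA probe, at 7.04, 7.64 and 7.47, then 7.76, 7.93 and 8.06, then 7.83, 7.88 and 8.19, went the other way without overlap, by 0.53 (adjusted p = 0.182) and 0.58 (adjusted p = 0.0668). No direction is therefore given for PCNA. RFC1 to RFC5, the loader subunits, differed by -0.13 to 0.05 with WT-BPIFB4 and by -0.26 to 0.06 with LAV-BPIFB4. A further RFC2 probe gave 0.13 and 0.43 and was not called.

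LIG1, the ligase that joins Okazaki fragments, fell with LAV-BPIFB4. It was at 8.92, 8.68 and 8.98 with the empty vector, 8.51, 8.52 and 9.06 with WT-BPIFB4 and 8.25, 8.40 and 8.17 with LAV-BPIFB4. The LAV-BPIFB4 arrays were below all other arrays, and the WT-BPIFB4 arrays spanned the range of the empty vector. LIG1 fell 1.499-fold with LAV-BPIFB4 (log2 change -0.58, SE 0.17, limma adjusted p = 0.0392) and differed by -0.16 with WT-BPIFB4 (adjusted p = 0.7). The call was lost without empty vector replicate 1 or 3 or any 1 of the LAV-BPIFB4 arrays, with adjusted p from 0.0669 to 0.159. With the value table, which holds other values for LAV-BPIFB4, the LIG1 change was -0.30 (adjusted p = 0.191).

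FEN1, the nuclease that trims the flaps before ligation, was named after its values were seen. It was at 11.93, 12.01 and 12.03 with the empty vector, 12.44, 12.38 and 12.32 with WT-BPIFB4 and 12.20, 12.08 and 12.15 with LAV-BPIFB4. The 3 groups did not overlap, WT-BPIFB4 being the highest. The FEN1 difference was 0.39 with WT-BPIFB4 (adjusted p = 0.0542) and 0.16 with LAV-BPIFB4 (adjusted p = 0.349). RPA1, RPA2 and RPA3, which coat single-stranded DNA, differed by -0.23, 0.08 and 0.14 with WT-BPIFB4 and by -0.30, 0.06 and 0.17 with LAV-BPIFB4, and none was called. Further RPA1 probes gave 0.11 and -0.07 with WT-BPIFB4 and -0.14 and -0.19 with LAV-BPIFB4. A further FEN1 probe gave 0.30 and 0.24.

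Chromatin assembly behind the fork is carried by CHAF1A and CHAF1B, the large subunits of CAF-1, and neither was called. CHAF1A was at 8.29, 8.22 and 8.46 with the empty vector, 8.37, 8.38 and 8.61 with WT-BPIFB4 and 8.10, 8.01 and 8.06 with LAV-BPIFB4. The LAV-BPIFB4 arrays were below all others. CHAF1A differed by 0.13 with WT-BPIFB4 and -0.27 with LAV-BPIFB4, and CHAF1B by 0.14 and 0.06.

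Nucleotide supply genes and E2F1 were not called. RRM1, the large subunit of ribonucleotide reductase, was at 12.81, 13.03 and 12.70 with the empty vector, 12.91, 12.71 and 12.58 with WT-BPIFB4 and 12.52, 12.68 and 12.55 with LAV-BPIFB4. RRM2, the small subunit, was at 8.58, 8.84 and 8.45, then 8.88, 8.69 and 8.44, then 8.44, 8.16 and 8.44. For both subunits the LAV-BPIFB4 arrays lay just below the empty vector arrays, by -0.26 (adjusted p = 0.153) for RRM1 and -0.27 for RRM2. The WT-BPIFB4 differences were -0.12 and 0.05.

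TYMS, thymidylate synthase, was at 11.52, 11.41 and 11.67 with the empty vector, 11.48, 11.53 and 11.52 with WT-BPIFB4 and 11.50, 11.49 and 11.42 with LAV-BPIFB4. Its groups overlapped, with differences of -0.02 and -0.06. E2F1, a transcriptional activator of these genes, was at 6.29, 6.04 and 5.97, then 6.29, 6.34 and 6.69, then 7.32, 5.97 and 6.52. LAV-BPIFB4 replicate 1 was the highest E2F1 value of all and replicate 2 as low as the lowest empty vector array. E2F1 differed by 0.34 with WT-BPIFB4 (adjusted p = 0.605) and 0.50 with LAV-BPIFB4 (adjusted p = 0.292).

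**Figure D4:**
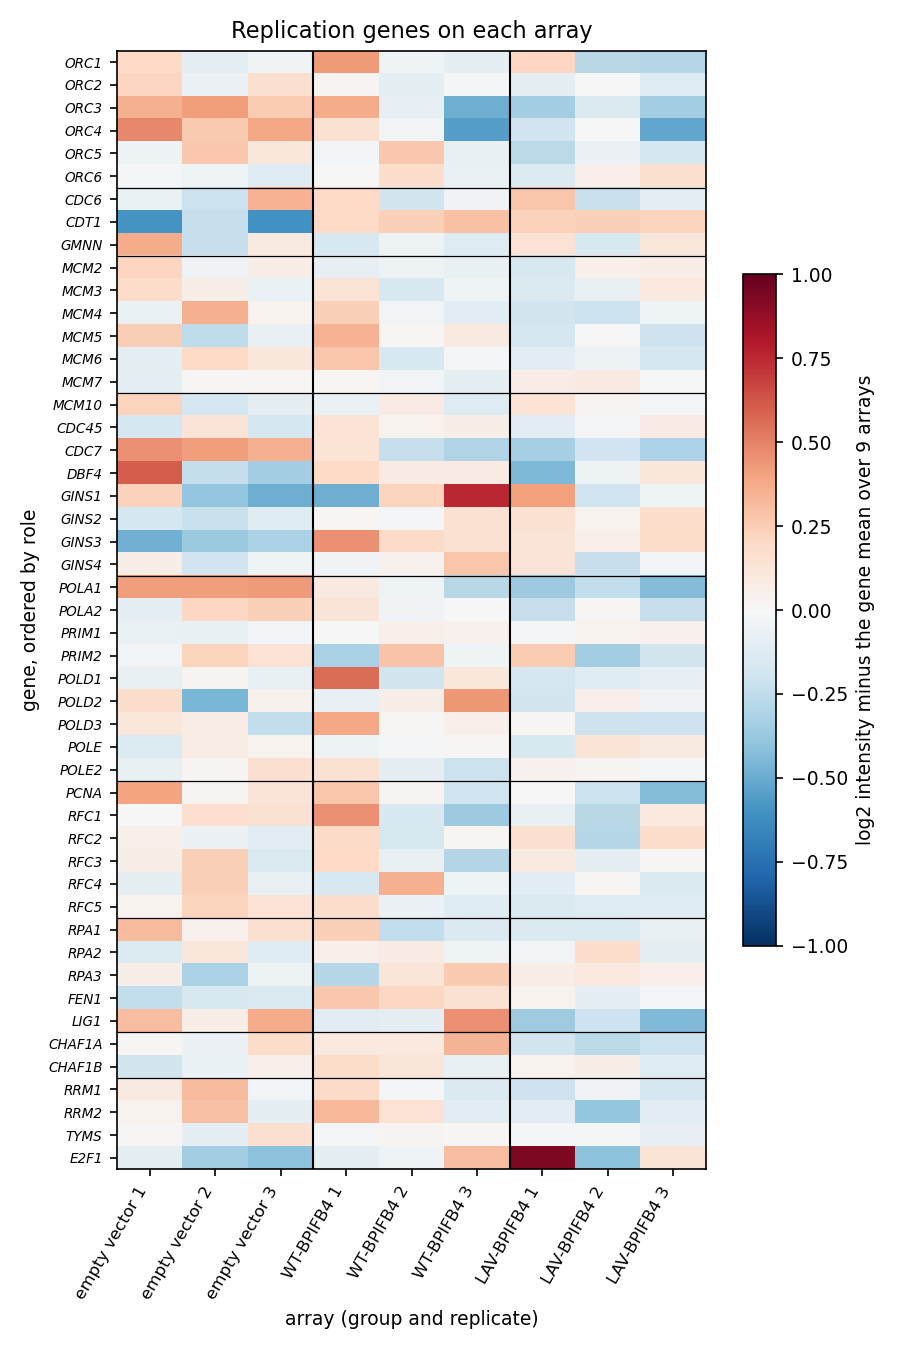
Log2 intensity of each of the 49 replication genes (rows, ordered by role) on the 9 arrays (columns, by group and replicate), shown as the deviation from the gene mean over the arrays, red above and blue below. CDT1 and GINS3 turn from blue to red between the empty vector and the LAV-BPIFB4 arrays and CDC7 and POLA1 from red to blue, and WT-BPIFB4 replicate 1 is red for many genes (median deviation 0.14).

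Between the LAV-BPIFB4 and WT-BPIFB4 groups, limma called 0 of 49 replication genes and 0 of all 11830 genes (0%). At an unadjusted p under 0.05 there were 4 replication genes (8.16%, against 3.8% of all genes), namely POLA1, FEN1, LIG1 and CHAF1A, all lower with LAV-BPIFB4 by the probe that stands for the gene. LIG1 differed by -0.42 (95% interval -0.78 to -0.07, unadjusted p = 0.021), CHAF1A by -0.40 (unadjusted p = 0.0191), POLA1 by -0.27 (-0.53 to -0.01, unadjusted p = 0.0418) and FEN1 by -0.23 (unadjusted p = 0.0261). The further POLA1 probe gave the other sign, 0.53 (unadjusted p = 0.106), and the further FEN1 probe gave -0.06. The limma adjusted p was 0.972 for each, and no replication gene was called under any of the 20 alternatives. For the genes that changed against the empty vector with both forms, the intervals of the difference were -0.27 to 0.24 for CDT1, -0.40 to 0.11 for GINS3 and -0.40 to 0.11 for CDC7.

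In this direct comparison 38 of 49 replication genes had a lower mean with LAV-BPIFB4, against 6217 of all 11830 genes. The median of the replication genes was -0.09, where all genes had -0.01. The groups did not overlap for 6 genes (12.2%, against 9.09% of all genes, 4.24% above and 4.84% below), which were MCM5, RFC5, FEN1, LIG1, CHAF1A and RRM2, all lower with LAV-BPIFB4. The median was -0.04 without WT-BPIFB4 replicate 1, the array where these genes were highest, and turned to 0.05 with median scaling, where the median of all genes moved to 0.13.

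Other genes around the fork changed in both directions. Of 30 further fork and initiation genes measured, 0 were called with WT-BPIFB4 (limma) and 5 with LAV-BPIFB4, 2 up and 3 down (16.7%, against 9.01% of all genes). With WT-BPIFB4 1.3% of all genes were called. With LAV-BPIFB4 the histone chaperone ASF1B rose 1.39-fold (adjusted p = 0.0252). The FACT subunit SUPT16H fell 1.38-fold (adjusted p = 0.0253), topoisomerase I (TOP1) fell 1.49-fold (adjusted p = 0.0296) and WDHD1, which couples polymerase alpha to the helicase, fell 1.56-fold (adjusted p = 0.035, a further probe giving -0.16). Leaving out 1 empty vector or LAV-BPIFB4 array ended each of these 4 calls for 3 to 6 of the arrays, with adjusted p up to 0.13. The median of the 30 genes was 0.08 with WT-BPIFB4 and -0.11 with LAV-BPIFB4. Of 8 S-phase checkpoint genes, 0 were called by limma in either comparison.

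Of 12 genes that control the CDT1 and CDC6 proteins, CUL4B alone was called, in both comparisons with the empty vector. This is 8.33%, against 1.3% of all genes with WT-BPIFB4 and 9.01% with LAV-BPIFB4. CUL4B, a cullin of the ubiquitin ligase that targets CDT1, fell 1.54-fold with WT-BPIFB4 (adjusted p = 0.0471) and 1.72-fold with LAV-BPIFB4 (adjusted p = 0.00404). The WT-BPIFB4 call of CUL4B was lost without any 1 of the 8 arrays other than WT-BPIFB4 replicate 1, with adjusted p from 0.0673 to 0.282, and the LAV-BPIFB4 call held without each. Of 18 E2F and pocket protein genes, only E2F2, an activating E2F, was called, in both comparisons (5.56%, against 1.3% and 9.01% of all genes). It rose from 9.32 ± 0.33 (SD, n = 3) with the empty vector to 10.20 ± 0.07 with WT-BPIFB4 (1.85-fold, adjusted p = 0.00355) and 10.32 ± 0.18 with LAV-BPIFB4 (2.01-fold, adjusted p = 5.63e-04). The E2F2 call with LAV-BPIFB4 also passed with median scaling (adjusted p = 0.00373) and without an intensity trend (adjusted p = 0.0413), and no array left out ended either call. The E2F2 call with WT-BPIFB4 was lost with median scaling (adjusted p = 0.257) and without an intensity trend (adjusted p = 0.117). Of 21 other E2F-driven S-phase genes, only the phosphatase CDC25A was called by the probe that stands for the gene. This was with LAV-BPIFB4 (1.36-fold up, adjusted p = 0.0193), a share of 4.76% against 9.01% of all genes. The CDC25A call was lost without empty vector replicate 1, LAV-BPIFB4 replicate 1 or LAV-BPIFB4 replicate 3 (adjusted p 0.0596 to 0.121). A further probe of RRM2B, a listed gene whose control by E2F was not tested, passed with WT-BPIFB4 (-1.19, adjusted p = 0.0473). A further EXO1 probe passed with LAV-BPIFB4 (-0.54, adjusted p = 0.0459), while another EXO1 probe gave -0.11.

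The mitosis genes gave a larger count with LAV-BPIFB4 than the replication genes, and the difference between the groups of genes was not tested. With LAV-BPIFB4, 10 of 38 mitosis genes were called down and 1 up (28.9%, against 9.01% of all genes), and the median change was -0.22. TOP2A, topoisomerase II alpha, fell 1.57-fold (limma adjusted p = 0.00381), HMMR fell 1.55-fold (adjusted p = 0.0111) and the checkpoint kinase BUB1 fell 1.54-fold (adjusted p = 0.0121), while INCENP rose 1.99-fold (adjusted p = 0.00866). A further INCENP probe gave 0.33 (adjusted p = 0.541). Each of these calls was lost with median scaling and without an intensity trend. Leaving out 1 LAV-BPIFB4 array ended those of HMMR (replicate 1), BUB1 (replicate 2 or 3) and INCENP (replicate 3, adjusted p = 0.0515). With WT-BPIFB4 only CENPE, a kinetochore motor, was called, 1.54-fold down (adjusted p = 0.0398), and the median was -0.19. Leaving out WT-BPIFB4 replicate 1 gave 9 mitosis genes down and 1 up with WT-BPIFB4, where 8.93% of all genes were called. Leaving out any other array gave 0 or 1, where 0.38% to 1.28% of all genes were called. The CENPE call was lost without any 1 of those 8 other arrays, with adjusted p from 0.0612 to 0.26. With LAV-BPIFB4 the number down was 2 without LAV-BPIFB4 replicate 2 or 3, where 4.54% and 2.87% of all genes were called. The number was 5 without empty vector replicate 1 or 3, where 4.65% and 4.8% of all genes were called. With median scaling it was 0, where 1.27% of all genes were called. The median of the list was then -0.09, where the median of all genes moved to 0.09.

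Several genes have more than 1 probe, and these did not always read alike. Of 16 replication genes with several probes above background, all probes shared a sign in 8 with WT-BPIFB4 and in 9 with LAV-BPIFB4. The median spread between the probes of a gene was 0.14 and 0.16, and the widest were PCNA (0.68 with WT-BPIFB4) and POLA1 (0.99 with LAV-BPIFB4, and 0.80 between LAV-BPIFB4 and WT-BPIFB4). CDT1, GINS3, CDC7, ORC3 and LIG1 were each read by 1 probe above background. The probes of ORC5, PCNA, POLD3 and RFC5 that stayed out were detected on 0 to 2 of 9 arrays.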

How the data were processed

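RNA from 9 samples of transfected HEK293T cells was measured on Illumina bead arrays, 3 per group. The deposited non-normalized table holds an intensity for each probe and array with its detection p-value, per the file headers, made by the authors with BeadStudio, per the submitters' processing notes. The deposited value table holds a further intensity, whose normalization is not given in the sources used here, and it was used only as an alternative. The members, gene lists, tests and naming rule were chosen with earlier results of these data known.

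Signals were background-corrected from the detection p-values, given an offset of 16, quantile-normalized and log2-transformed with neqc (limma 3.58.1, R 4.3.3). Of 47310 probes, 20914 with a detection p under 0.05 on at least 3 arrays were kept. Names came from the platform's gene table, where 30105 probes had 1 symbol (30066 updated through RefSeq, GRCh38.p14), 8 several and 17197 none. The kept probe with the highest mean stood for a gene.

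One limma model with 3 group means and an intensity trend covered all 9 arrays, two-sided, with Benjamini-Hochberg adjustment over all kept probes. The pipeline was tested on simulated data. The number of arrays limits the precision. Values on every array are given for members called in any comparison, for the member with the smallest LAV-BPIFB4 p in each role, and for CDT1, GMNN, CDC6, MCM2, MCM5, CDC45, POLA1, PCNA, RRM2, TYMS and E2F1. Of each other list, up to 4 called genes with the smallest p are named, and members named after their values were seen are marked so. Alternatives changed background correction, offset, scaling, value table, probe filter, variance trend, array weights, samples in the fit, the probe that stands for a gene and single arrays.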

Additional observations from a re-analysis of the deposited data

How the results depend on the processing

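For WT-BPIFB4 against the empty vector, the 3 replication genes called became 0 with median scaling, 0 without an intensity trend and 5 with array weights, and 1 to 7 when 1 array was left out. The shares of all genes called were 0.27%, 0.194%, 6.16% and 0.38% to 8.93% in the same order. For LAV-BPIFB4 the 6 genes became 0 with median scaling, 1 without a trend and 3 to 8 with 1 array left out. There the shares of all genes were 1.27%, 1.08% and 2.87% to 14.4%. Between LAV-BPIFB4 and WT-BPIFB4 the count was 0 under all 20 alternatives. No called probe changed sign under the 19 alternatives run per probe, but POLA1's further probe gave 0.23 with LAV-BPIFB4 where the called one gave -0.77. CDT1 was called in 17 of 19 alternatives in each comparison, CDC7 in 6 of 19 with WT-BPIFB4, and with LAV-BPIFB4 ORC3 was lost in 10 and LIG1 in 9. The LAV-BPIFB4 median of -0.10 was -0.0712 without background correction, -0.0807 with an offset of 50, 0.105 with median scaling, -0.0511 with the value table and -0.125 to -0.0455 with 1 array left out. The LAV-BPIFB4 against WT-BPIFB4 median of -0.09 was 0.0516 with median scaling and -0.118 to -0.041 with 1 array left out, the latter without WT-BPIFB4 replicate 1. Over all genes, calls ran from 23 (no trend) to 1057 (without WT-BPIFB4 replicate 1) around 154 with WT-BPIFB4, and from 128 (no trend) to 1977 (array weights) around 1066 with LAV-BPIFB4. The cause of these shifts was not tested. The value table also exchanges the LAV-BPIFB4 values, since they match none of the arrays.

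Samples share replicate numbers, but the labels do not say that these pair them. Deviations of same-numbered samples correlated at 0.00109 to 0.216, over 0.1 in 4 of 9 pairs. Replicates 1 and 2 correlated best with their own number in every comparison. Replicate 3 did so only between WT-BPIFB4 and the empty vector. With a replicate block, which the main model leaves out, 5 replication genes were called with WT-BPIFB4 and 8 with LAV-BPIFB4. Over all genes, 4.54% and 15.5% were called with this block.

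DBF4, GINS1 and PRIM2 were near background on several arrays, and 46 of 49 genes had a probe with a detection p under 0.01 on all 9.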
